A study of Mus musculus with 4 samples.

Results

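The stretch of the mouse HoxA cluster from Hoxa5 to Hoxa9 was examined, on chromosome 6 of build mm9, from 52151568 to 52179067. It spans 27.5 kb and holds the CTCF sites 5|6 (between Hoxa5 and Hoxa6) and 7|9 (Hoxa7 and Hoxa9), for which the mutant line of the study is named. Its members were chosen by position: the HindIII fragments that lie wholly inside it, which were 3 of the 461 fragments with an insulation score. They are called here the Hoxa5-side fragment (52151568 to 52163061, 11494 bp), the middle fragment (52163062 to 52173421, 10360 bp) and the Hoxa9-side fragment (52174043 to 52179067, 5025 bp). The scores come from 5C, in which pooled primers count ligation products between many restriction fragments of a region. The 4 libraries were motor neurons (MN) of the Δ5|6:7|9 line, MN of the wild-type (WT) line, embryonic stem cells (ESC) of the Δ5|6:7|9 line and ESC of the WT line, with 1 library each. The Δ5|6:7|9 line is called the deletion line below. A library here means the 1 set of scores given for a sample. Per the labels' protocols each sample had 2 biological replicates, but no scores of single replicates were available. ESC of both lines were kept with Lif, a MEK inhibitor (1 µM) and a GSK3 inhibitor (3 µM). For MN, embryoid bodies were formed and were patterned on day 2 with retinoic acid (1 µM) and a smoothened agonist (0.5 µM). The sources used here give neither the day of harvest, nor the purity of the MN, nor the number of clones behind the deletion line. No expression was measured, so the cell states were not checked against marker genes.

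The Hox genes encode homeodomain transcription factors that give cells their position along the head-to-tail axis, and they lie along the cluster in the order of the body levels they pattern. In mouse, Hoxa5 patterns the neck and upper trunk and is needed for lung development and, with Hoxc5, for the motor neurons that drive the diaphragm. Hoxa6 and Hoxa7 act in the trunk, and Hoxa9, the first of the posterior class in this order, acts more caudally and in blood progenitors. CTCF is a zinc finger protein that, with cohesin, holds chromatin loops and sits at many borders between contact domains. In motor neurons patterned with retinoic acid, the anterior HoxA genes are known to be active and the posterior ones to be kept silent by Polycomb, with the border in this stretch. In the RefSeq order of GRCm38.p6, with rising coordinate, Hoxa4 precedes the 4 genes and Hoxa10 follows them, so the low-coordinate side of the stretch leads to the anterior genes and the high-coordinate side to Hoxa13. Hoxa3 and the noncoding genes Hoxaas3 and Mira also overlap the span from Hoxa5 to Hoxa9, in whole or in part, in that annotation. Genes were not assigned to single fragments, for want of an annotation of build mm9.

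The promoters of Hoxa5 and Hoxa7 are shown because the genes are read from the minus strand, so that each window runs upstream from its gene into an interval named in the deletion line, 5|6 for Hoxa5 and 7|9 for Hoxa7. Both are from RefSeq, build GRCm38.p6, minus strand, with 250 bases before and 50 bases after the start, at chr6:52204538-52204837 and chr6:52218524-52218823. Capitals mark a match of at least 14 of 15 letters to the CTCF consensus on either strand.
Hoxa5: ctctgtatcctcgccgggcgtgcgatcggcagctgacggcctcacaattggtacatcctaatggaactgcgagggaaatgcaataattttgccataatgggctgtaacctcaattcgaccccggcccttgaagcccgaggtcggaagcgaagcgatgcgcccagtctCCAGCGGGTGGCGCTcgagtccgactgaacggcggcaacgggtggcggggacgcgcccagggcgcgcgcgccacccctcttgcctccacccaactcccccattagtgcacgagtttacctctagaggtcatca
Hoxa7: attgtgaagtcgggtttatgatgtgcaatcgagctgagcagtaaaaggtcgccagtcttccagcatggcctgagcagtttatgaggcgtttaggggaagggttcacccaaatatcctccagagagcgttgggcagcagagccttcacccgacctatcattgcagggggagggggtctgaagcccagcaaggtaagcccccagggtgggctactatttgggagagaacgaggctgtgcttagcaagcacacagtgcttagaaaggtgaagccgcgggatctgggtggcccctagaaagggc
The Hoxa5 window held such a match from base -83 to base -69 before the start, with 14 of 15 letters, and it lies between the annotated Hoxa5 and Hoxa6 gene bodies. A match that close was found in 1.43% of 32851 promoters of the same length, and in 1 of the 4 promoters of Hoxa5, Hoxa6, Hoxa7 and Hoxa9. The best matches of Hoxa6, Hoxa7 and Hoxa9 had 12, 12 and 11 letters. The shorter core CAGNNGGC, searched on both strands, was in none of the 4 promoters and in 25.9% of all. The HindIII site AAGCTT, at which the 5C fragments are cut, was in none of the 4 and in 7.45% of all. The consensus was chosen after the sequences were seen, and a match of letters is no evidence of binding. These coordinates belong to another build than those of the fragments and cannot be set beside them.

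The insulation score is a number per fragment that the authors scaled in a way they do not state in the labels or headers. It averaged 1.00 in each library over the 461 scored fragments, so it compares a fragment with the rest of its own library. Nothing says which way it runs. Scores of this kind are usually low where few contacts pass over a fragment, so that boundaries appear as dips. Scores of neighbouring fragments share contacts and are not independent measurements. The depth behind a score is unknown, as the tables hold no counts. Scores are written with up to 16 decimals in deletion-line MN and with up to 10 in WT MN, deletion-line ESC and WT ESC. A last digit of 5 at 10 decimals was carried by 47.1% to 53.6% of scores in the other 3 libraries. No deletion-line MN score carried it, but this may follow from the different number format and cannot show how many replicates were combined. Whether deletion-line MN combines as many replicates as the others was not tested.

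WT MN stood apart from the other 3 libraries at all 3 fragments. The Hoxa5-side fragment scored 1.05 in deletion-line MN, 0.368 in WT MN, 1.43 in deletion-line ESC and 0.973 in WT ESC. The middle fragment scored 0.867 in deletion-line MN, 0.323 in WT MN, 1.24 in deletion-line ESC and 0.831 in WT ESC. The Hoxa9-side fragment scored 0.840 in deletion-line MN, 0.403 in WT MN, 1.20 in deletion-line ESC and 0.809 in WT ESC. The order of the libraries was thus the same at each fragment, with deletion-line ESC highest, then deletion-line MN, then WT ESC, and WT MN lowest. Deletion-line MN and WT ESC were close neighbours in this order, and with 1 library each their spread between replicates is unknown.

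**Figure D1:**
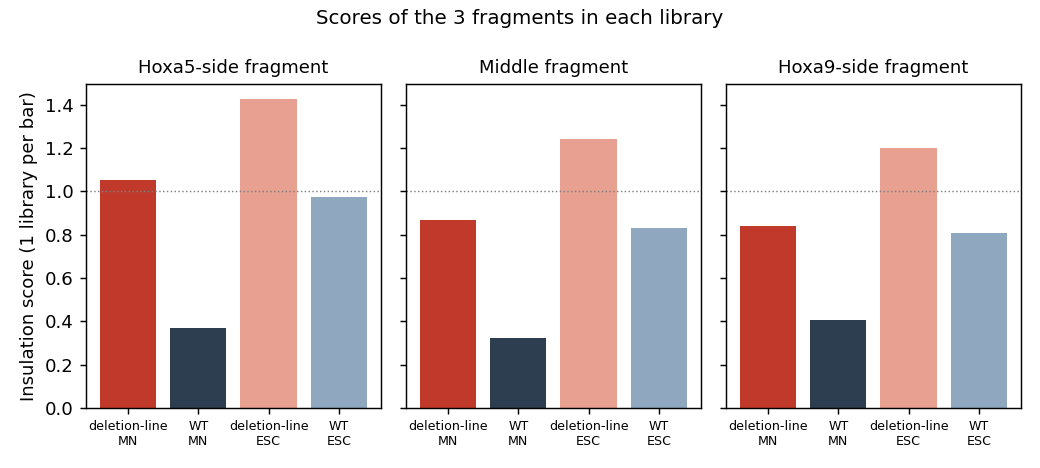
Bars give the insulation score (no unit, 1 library per bar, no error) of the Hoxa5-side, middle and Hoxa9-side fragments in deletion-line MN, WT MN, deletion-line ESC and WT ESC, and the dotted line marks a score of 1. WT MN scored 0.323 to 0.403, against 0.809 or more in every other library.

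The place of the stretch within the profile of its region also differed between libraries. In WT MN the middle fragment was the lowest of all 461, the Hoxa5-side fragment ranked 3 and the Hoxa9-side fragment ranked 5, counted from the lowest. In deletion-line MN the ranks from the lowest were 283, 140 and 126 from the Hoxa5 side to the Hoxa9 side. In deletion-line ESC they were 441, 383 and 358, in the upper part of the profile. In WT ESC they were 213, 117 and 103. The mean over the 3 fragments was 0.920 (SD 0.116 over fragments) in deletion-line MN, 0.365 (SD 0.040) in WT MN, 1.29 (SD 0.12) in deletion-line ESC and 0.871 (SD 0.089) in WT ESC. The other 458 fragments had medians of 0.996, 1.01, 0.983 and 0.991 in the same libraries. The SDs are over fragments that share contacts, not over replicates.

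How the stretch differed without the CTCF sites was asked first in motor neurons. Deletion-line MN scored 2.86-fold higher than WT MN at the Hoxa5-side fragment, 2.68-fold at the middle fragment and 2.08-fold at the Hoxa9-side fragment. The log2 ratios were 1.51, 1.42 and 1.06, with a mean of 1.33 (SD 0.24 over 3 fragments). The other 458 fragments had a median log2 ratio of -0.014 with an SD of 0.11. Over the 401 fragments at least 200 kb away the log2 ratio ranged from -0.33 to 0.16. A ratio of at least 1.5-fold higher was reached by all 3 fragments, while 1.52% of all scored fragments (7 of 461) reached it. The other 4 fragments were direct neighbours, 3 on the low-coordinate side and 1 on the high-coordinate side. The 3 fragments, 0.651% of those scored, contributed 51.1% of this comparison's total of squared log2 ratios.

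The edges of the stretch did not bound the change evenly. Just outside it, the fragment from 52148204 to 52151567 on the Hoxa4 side was 2.21-fold higher in deletion-line MN (1.17) than in WT MN (0.529). That was above the Hoxa9-side fragment inside the stretch. The fragment from 52179068 to 52183981 on the Hoxa10 side was 1.54-fold higher (0.711 in deletion-line MN and 0.462 in WT MN). Farther out on the low-coordinate side the log2 ratio was 0.83, 0.60, 0.46 and 0.29 at successive fragments from 52148203 down to 52124761. On the high-coordinate side it was 0.27 at 52183982 to 52188538, -0.0011 at 52188539 to 52190053, -0.23 at 52190054 to 52203348 and -0.33 at 52203349 to 52209630. The higher scores thus reached farther toward the anterior genes than toward Hoxa13, where the ratio was below 0 from the third fragment on, out to the fifth. With 1 library per line there is no test of these ratios and no replicate check.

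The same comparison in stem cells gave a smaller and more even difference. Deletion-line ESC scored 1.47-fold higher than WT ESC at the Hoxa5-side fragment, and 1.49-fold at both the middle and the Hoxa9-side fragments. The log2 ratios were 0.55, 0.58 and 0.57, with a mean of 0.57 (SD 0.014 over 3 fragments), next to a median of -0.015 and an SD of 0.11 over the other 458 fragments. Among all 461 fragments they ranked 5, 2 and 4 from the highest. None of the 3 reached 1.5-fold, and 0.217% of all scored fragments (1 of 461) did. That fragment was the direct neighbour on the Hoxa10 side, at 1.51-fold (1.08 in deletion-line ESC and 0.716 in WT ESC). After quantile normalization of the 4 libraries, 2 of the 3 fragments were past 1.5-fold. The 3 fragments contributed 15.0% of the total of squared log2 ratios in ESC. Unlike in MN, the ratio in ESC was also high on the Hoxa13 side, at 0.57, 0.52 and 0.53 over the fragments from 52183982 to 52203348.

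**Figure D2:**
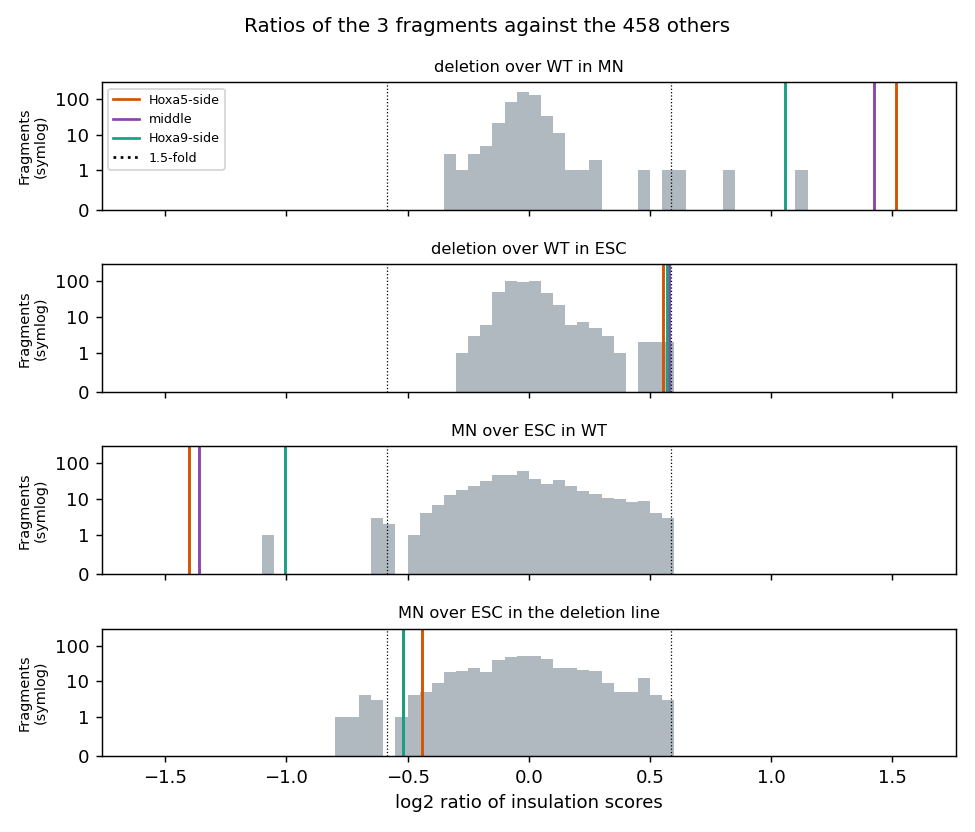
Each panel shows the distribution of log2 ratios over the 458 other scored fragments (grey, number of fragments on a symmetric log axis) for 1 comparison, with the Hoxa5-side, middle and Hoxa9-side fragments as coloured lines and 1.5-fold as dotted lines. In deletion-line over WT MN the 3 fragments lie at 1.06 to 1.51, and in MN over ESC of the deletion line the lines of the middle and Hoxa9-side fragments coincide at -0.52.

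Set side by side, the change with the deletion was larger in MN than in ESC at each fragment of the stretch. The difference of the log2 ratios, MN minus ESC, was 0.96 at the Hoxa5-side fragment, 0.84 at the middle fragment and 0.49 at the Hoxa9-side fragment, with a mean of 0.76 (SD 0.25). These ranked 1, 2 and 4 from the highest among 461 fragments. The third was the neighbour on the Hoxa4 side, at 0.65. Over the 401 fragments at least 200 kb away the difference ranged from -0.36 to 0.32. The order within the stretch also differed between the states: the MN change was larger toward Hoxa5, whereas the ESC change was nearly level from end to end. The difference has no test, because 1 library per group leaves no residual degree of freedom.

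A change with the deletion common to both states was asked for with an additive fit of line and state to the log2 scores of the 4 libraries (limma, Benjamini-Hochberg over 461 fragments). Its residual is the difference between the states, which is large in this stretch. None of the 3 fragments passed an adjusted p of 0.05, and 0.217% of all fragments (1 of 461) passed as higher. The limma adjusted p was 0.40 for the Hoxa5-side fragment, 0.31 for the middle fragment and 0.17 for the Hoxa9-side fragment, with log2 changes of 1.03, 1.00 and 0.81 (SE 0.23, 0.20 and 0.12). Their unadjusted p-values from limma were 0.0087, 0.0061 and 0.0017, and 23 of all 461 fragments had one under 0.05. Among all 461, the p-values of these 3 fragments ranked 10, 9 and 4 from the smallest. The fragment that passed was the neighbour on the Hoxa10 side, with a limma adjusted p of 0.018, where the ratios in the states were 0.62 in MN and 0.60 in ESC. The calls of this fit in the stretch depend on its settings, as on linear scores the middle (adjusted p 0.047) and Hoxa9-side (0.040) fragments passed with limma.

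Differentiation was compared next, first in the WT line. From the Hoxa5 side to the Hoxa9 side, WT scores were 2.64-fold, 2.57-fold and 2.01-fold lower in MN than in ESC. The log2 ratios were -1.40, -1.36 and -1.004, with a mean of -1.26 (SD 0.22 over 3 fragments), against a median of -0.026 and an SD of 0.22 over the other 458. All 3 fragments were at least 1.5-fold lower, as were 1.74% of all scored fragments (8 of 461). Of the 5 others, 4 lay on the low-coordinate side, up to 44.4 kb away, and 1 was the neighbour on the Hoxa10 side. The stretch contributed 17.7% of the total of squared log2 ratios. At least 200 kb away the SD of the log2 ratio was 0.19 here, against 0.059 for the deletion in MN. The WT MN library enters both this comparison and the one of the lines in MN, so their values are not independent.

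In the deletion line the stretch was also lower in MN than in ESC, by less. Scores were 1.36-fold lower at the Hoxa5-side fragment and 1.43-fold lower at the middle and Hoxa9-side fragments, with log2 ratios of -0.44, -0.52 and -0.52 and a mean of -0.49 (SD 0.045). None of the 3 was at least 1.5-fold lower, while 1.95% of all scored fragments (9 of 461) were. Their ranks from the lowest were 18, 11 and 12. The larger decreases in this line lay beside the stretch toward Hoxa13, where 6 successive fragments from 52179068 to 52233685 were past 1.5-fold, and about 1 Mb away, where 3 were. The stretch contributed 2.89% of the total of squared log2 ratios in the deletion line, against 17.7% in WT. The state change in the additive fit is common to both lines and not a result for the deletion line alone. From the Hoxa5 side to the Hoxa9 side its log2 values were -0.92, -0.94 and -0.76, between the ratios of the lines. Its residual is the difference between the lines, large in this stretch, so its p-values measure no spread between replicates. The additive fit put all 3 fragments among those lower in MN at a limma adjusted p of 0.035, 0.024 and 0.011, from the Hoxa5 side to the Hoxa9 side, as it did 23.0% of all fragments (106 of 461). With robust variance moderation in limma, none of the 3 passed (adjusted p 0.15, 0.12 and 0.059).

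**Figure D3:**
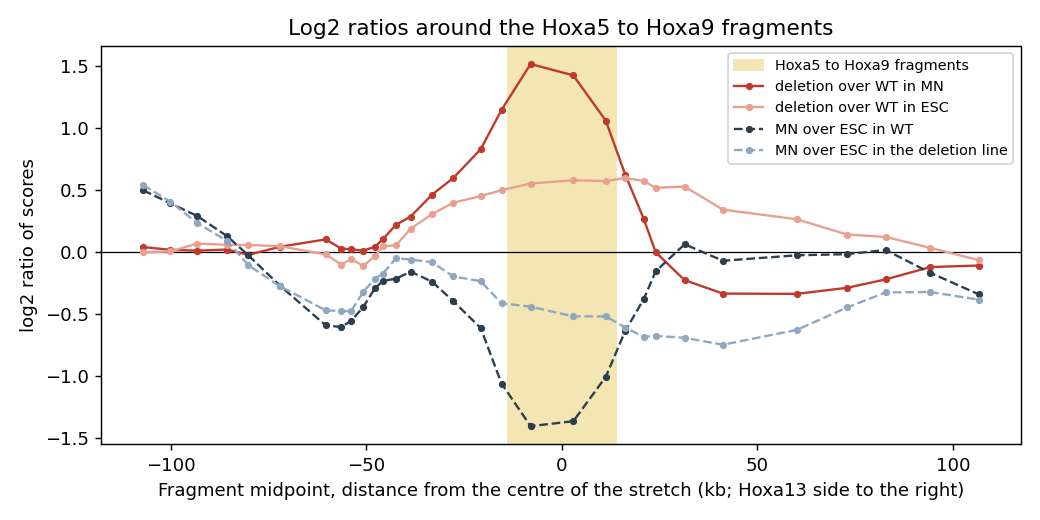
Log2 ratios of insulation scores are plotted against the distance of each fragment's midpoint from the centre of the stretch (kb, Hoxa13 side to the right) for the 4 comparisons, with the Hoxa5 to Hoxa9 stretch shaded. The deletion ratio peaks at 1.51 inside the stretch in MN and stays between 0.55 and 0.58 across it in ESC.

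The shape of the profile across the stretch set WT MN apart from the other libraries. A shape within a library is the same under any constant factor per library, and the steps below kept their signs after quantile normalization. From the Hoxa5-side to the middle fragment the score stepped down in all 4 libraries, with log2 steps of -0.28 in deletion-line MN, -0.19 in WT MN, -0.20 in deletion-line ESC and -0.23 in WT ESC. From the middle to the Hoxa9-side fragment it stepped up by 0.32 in WT MN and down in the others, with steps of -0.046 in deletion-line MN, -0.046 in deletion-line ESC and -0.039 in WT ESC. The turn of the WT MN profile thus fell within the stretch, at the middle fragment. On the approach from the Hoxa4 side, the step into the Hoxa5-side fragment was -0.15 in deletion-line MN, -0.52 in WT MN, -0.13 in deletion-line ESC and -0.18 in WT ESC.

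Set against their flanks, the 3 fragments formed a dip in WT MN and lay on a slope in the other libraries. The flanks were the 5 scored fragments on each side. In deletion-line MN the mean score was 1.38 on the low-coordinate flank, 0.920 in the stretch and 0.507 on the high-coordinate flank. In WT MN it was 0.900, 0.365 and 0.467. In deletion-line ESC it was 1.58, 1.29 and 0.808, and in WT ESC it was 1.22, 0.871 and 0.561. Relative to the mean of both flanks, the log2 score of the stretch was 0.16 in deletion-line MN, -0.81 in WT MN, 0.21 in deletion-line ESC and 0.085 in WT ESC. Relative to the high-coordinate flank alone it was -0.36 in WT MN, the only library where the stretch lay below that flank, and above 0 in deletion-line MN (0.91), deletion-line ESC (0.72) and WT ESC (0.66).

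**Figure D4:**
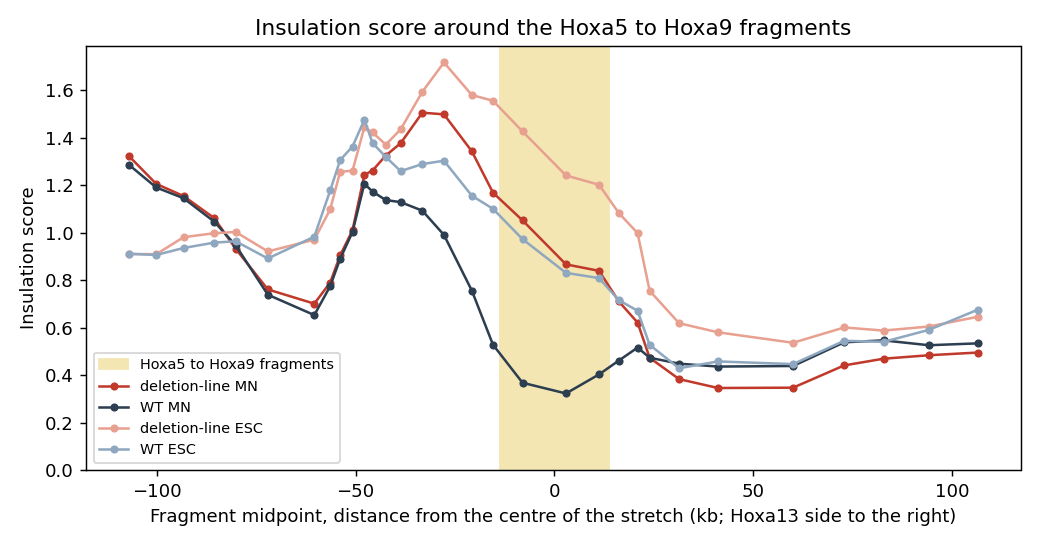
Insulation score of each scored fragment (no unit) against the distance of its midpoint from the centre of the stretch (kb, Hoxa13 side to the right) in the 4 libraries, with the Hoxa5 to Hoxa9 stretch shaded. WT MN reaches its lowest score, 0.323, inside the stretch, and the other 3 profiles fall through it to minima on the Hoxa13 side.

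A fragment counted as a local minimum if the shallower wall around it rose by at least 0.25 on the log2 scale, its prominence. The middle fragment was a local minimum in WT MN, with a prominence of 2.44, the largest of 24 in that library. As the lowest scored fragment of WT MN it is a local minimum by definition. Its large prominence therefore mostly restates that rank. In the other libraries no fragment of the stretch was a local minimum, also at a prominence of 0.15. The nearest minimum on the high-coordinate side lay at 52203349 to 52209630 in deletion-line MN (prominence 2.22), at 52217060 to 52233685 in deletion-line ESC (1.68) and at 52190054 to 52203348 in WT ESC (1.78). Each of these had the second largest prominence of its library. WT MN also had a minimum at 52203349 to 52209630 (score 0.437), but with a prominence of 0.24 it was called only at the setting of 0.15.

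The fragments most like the stretch in their pattern over the 4 libraries were its neighbours. Likeness was measured as the root mean square difference of log2 scores, each fragment centred on its own mean, from the mean pattern of the 3 fragments. That mean pattern was 0.23 in deletion-line MN, -1.10 in WT MN, 0.72 in deletion-line ESC and 0.15 in WT ESC. The 3 fragments themselves, from which that mean was taken, differed from it by 0.046 to 0.11. The Hoxa9-side fragment (0.11) was farther from it than the closest other fragment. The closest other fragment was 52148204 to 52151567 on the Hoxa4 side (0.099), followed by 52179068 to 52183981 on the Hoxa10 side (0.28), 52140924 to 52148203 (0.29), 52134173 to 52140923 (0.39) and 52183982 to 52188538 (0.41). At least 200 kb away, the closest were 52896960 to 52908680 (0.55), 52912884 to 52921147 (0.57) and 51513436 to 51517413 (0.57), against a median of 0.67 over all others. In WT MN those distant fragments deviated from their own means by -0.22, -0.19 and -0.17, against -1.10 in the stretch. The pattern rests on 4 libraries.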

How the data were processed

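Per the labels' protocols, 2 biological replicates of each sample were cut with HindIII, ligated and annealed with 5C primers. Per the submitters' processing notes, Bowtie 1 and build mm9 were used. Per the file headers, the deposited insulation score of each fragment was combined by a script of the authors. How primers were filtered, contacts normalized and the score windowed is not stated there.

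All 4 tables listed the same 479 fragments. Of these, 18 at the ends had scores of 0 everywhere and were dropped, with no other filter. Scores were taken as log2 without a pseudocount, and log2 ratios, ranks, steps, flank differences and local minima (scipy 1.17.1) were computed per library. Each group had 1 library, so ratios have no test. The additive fit used limma 3.58.1 with 1 residual degree of freedom. It was run on simulated data with independent noise per fragment and a line effect equal in both states. That run therefore cannot show how the fit behaves in this stretch. A ratio was called at 1.5-fold. Named fragments were the members, 5 neighbours per side and those of the most similar pattern. Alternatives were other summaries, edges, flanks, scalings and variance settings. The members and lists were chosen with earlier results of these data known.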

Additional observations from a re-analysis of the deposited data

Results flagged for a closer look

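Among the named fragments, the change with the deletion went opposite ways in the 2 cell states at 2 fragments beside the stretch toward Hoxa13. Only the named fragments were searched, so the share over all scored fragments is not known. At 52190054 to 52203348 the log2 ratio of deletion line over WT was -0.23 in MN and 0.53 in ESC, and MN minus ESC gave -0.75. The next fragment, 52203349 to 52209630, had -0.33 in MN and 0.34 in ESC, and MN minus ESC gave -0.68. Each ratio was larger in size than the SD over the 458 fragments outside the stretch, which the search required. Over the 401 fragments at least 200 kb away, however, the ratio ranged from -0.33 to 0.16 in MN and from -0.27 to 0.31 in ESC. The MN ratio of the first fragment lay inside that range and that of the next at its edge, while their ESC ratios lay above it. Both differences were below the lowest far value, -0.36. The difference was not tested, since each group has 1 library. No fragment of the stretch itself showed opposite signs.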

How the results depend on the processing

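No paired analysis was possible because each group has 1 library and the labels give no replicate numbers. The 5 mean log2 ratios of the stretch were recomputed under 7 alternatives each. Of the 35 values, all kept their sign and 32 moved by less than the SD of single-fragment ratios outside the stretch. The other 3 concerned the deletion change in MN and its excess over ESC. The deletion change in MN (1.33) was 1.15 with 1 more fragment on each side and 1.22 after quantile normalization. Its excess over ESC (0.76) was 0.59 with 1 more fragment on each side. The SD was 0.11 for the deletion in MN and in ESC, 0.13 for the excess, and 0.22 (WT) and 0.23 (deletion line) for MN over ESC. The measure was thus laxer for MN over ESC. In WT that ratio went from -1.26 to -1.09 with 1 more fragment on each side and still counted as less than the SD. For the position against the flanks (log2, 0.16 in deletion-line MN, -0.81 in WT MN, 0.21 in deletion-line ESC and 0.085 in WT ESC), the low-coordinate flank alone gave -0.59, -1.25, -0.29 and -0.49 in the same order, and the high-coordinate flank alone gave 0.91, -0.36, 0.72 and 0.66. Each of these uses 1 side of the profile only. The lowest of the 3 fragments gave -0.016 in WT ESC. With 3 fragments per side the values were 0.042, -0.71, 0.066 and 0.0040, and with 10 per side 0.26, -0.92, 0.37 and 0.040, so the position in the 3 libraries other than WT MN depends on the width of the flank. After quantile normalization, added after seeing the data, they were 0.13, -0.75, 0.25 and 0.11. With limma, the count of fragments called for the line (1) was 0 after quantile normalization, 6 on linear scores and 6 without the 20% of fragments with the lowest mean scores, and the cause was not tested. The unadjusted limma p was under 0.05 for 23 of 461 fragments, about the share that such a threshold passes when nothing differs. These p-values were not spread evenly. Ranks 1 to 10 from the smallest were all held by successive scored fragments from 52124761 to 52188538, the stretch included, all higher in the deletion line. Neighbouring scores share contacts, so this run does not count as independent results. With all 461 fragments the limma adjusted p for the line in the stretch ran from 0.040 to 0.77. The filter on low mean scores left out 2 of the 3 fragments, and the Hoxa5-side fragment stayed through the libraries in which it scored high. Its adjusted p of 3.15e-08 there, with 24.7 prior degrees of freedom against 3.44 with all fragments, is therefore not read as a call. The count called for the state (206) stayed within 1.5 times under the 6 alternatives. Leaving out a library, such as deletion-line MN, leaves no residual degree of freedom and was not run. The depth behind a score is unknown, so its precision cannot be stated.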

Other observations

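Deletion-line MN and WT ESC differ in both line and state, so their values belong to no comparison of the design. At the stretch they were close. The Hoxa5-side fragment scored 1.05 in deletion-line MN and 0.973 in WT ESC, 8.13% higher in deletion-line MN. The middle fragment scored 0.867 in deletion-line MN and 0.831 in WT ESC, 4.31% higher in deletion-line MN. The Hoxa9-side fragment scored 0.840 in deletion-line MN and 0.809 in WT ESC, 3.79% higher in deletion-line MN. The mean log2 ratio over the 3 fragments was 0.076, while the SD over the other 458 fragments was 0.22. By size, the ratios ranked 206, 119 and 103 from the smallest among 461 fragments, so closeness of this degree was common in the region. How much of it the spread between replicates would cover was not tested.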
